A study of Mus musculus with 20 samples.

Results

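Genes of glycolysis, the pentose phosphate pathway and the hypoxia response were followed in bone marrow-derived macrophages (BMDMs) that received airway fluid fractions from mice with allergic lung inflammation. The set was given as 37 gene names, and a name was kept when its level, averaged over the 20 libraries, reached 3 CPM (the count of a gene scaled to a common library total). Of the 37 names, 35 met this limit, out of 10640 genes that met it and 78409 rows listed. Eno2 with a mean of 2.77 CPM and Pfkm with 1.80 CPM lay just outside, and Egln3 with 3.03 CPM and Ldhb with 3.29 CPM lay just inside.

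The BMDMs came from bone marrow of wild-type female C57BL/6J mice, were grown with L929-conditioned medium and were treated on culture day 7 in serum-free Opti-MEM. The fractions were separated by size exclusion chromatography from bronchoalveolar lavage fluid (BALF) of OVA-challenged mice that were RNY1+/+ or carried a CRISPR deletion of RNY1 (RNY1-/-), a small noncoding Y RNA, and they were kept at 4 °C for 5 days before use. The 5 groups of 4 libraries were PBS, RNY1+/+ EVFx and RNY1-/- EVFx (vesicle-enriched fractions, 35000000 particles per µL), and RNY1+/+ ProteinFx and RNY1-/- ProteinFx (protein-enriched fractions, 0.75 µg protein per µL). The recipient cells were wild type in all 5 groups, so the genotype names only the donor of the fraction. Per the study's methods, the RNY1-/- mice were obtained from GemPharmatech, and all other mice were C57BL/6J from JAX. An effect of the donor's RNY1 deletion therefore cannot be told apart from one of the source of the mice. The EVFx and ProteinFx doses were set in different units, and a difference between fractions cannot be told apart from a difference in dose. The study's mice were 7 to 16 weeks old, with no age given by group. The length of treatment and the number of donor pools or separate cultures behind the 4 libraries of a group were not given in the sources used here, so p-values measure only the spread between these libraries, which may be technical.

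Glycolysis turns glucose into pyruvate in the cytosol. Glucose enters through transporters, is trapped by hexokinases, and the pyruvate at the end is either burned in mitochondria or reduced to lactate and exported. The pentose phosphate pathway branches off at glucose 6-phosphate: its oxidative arm makes NADPH, which macrophages use for the oxidative burst and for keeping glutathione reduced, and its non-oxidative arm exchanges sugars with glycolysis. HIF-1α, a transcription factor that accumulates at low oxygen or on inflammatory activation, is known to switch on many glycolytic genes together with Bnip3, Vegfa, Egln3 and P4ha1.

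Library totals ranged from 2510005 to 8277366 counts, with a median of 5456425. The 8 macrophage markers checked were all expressed, with summed levels of 8620 to 12970 CPM per library, while the summed lymphocyte markers stayed at or below 2.38 CPM and the erythroid markers at or below 0.420 CPM. The 12 neutrophil markers summed to between 353 and 374 CPM with PBS, between 176 and 232 CPM with RNY1+/+ EVFx, 212 and 290 CPM with RNY1-/- EVFx, 254 and 376 CPM with RNY1+/+ ProteinFx, and 287 and 430 CPM with RNY1-/- ProteinFx, with 5 of the 12 at 3 CPM or more on average; their part in the results was not tested. The 8 eosinophil markers, of which Epx and Il5ra were at 0 in every library, summed to 9.28 to 15.3 CPM with PBS, 1.0 to 2.46 CPM in the EVFx libraries and 13.2 to 21.4 CPM in the ProteinFx libraries. The 12 airway epithelial markers, 7 of them at 0 in every library, summed to 5.07 to 32.1 CPM and the 5 fibroblast markers to 10.8 to 51.4 CPM. Their part in the results was not tested either. In 2 groups the libraries stood apart. PBS replicate 3 differed from the other PBS libraries (chi-square per gene 18.4 to 39.2, against 2.46 between PBS replicates 1 and 2). The RNY1-/- ProteinFx libraries fell into the pairs 1 with 2 and 3 with 4 (3.80 and 2.5 within the pairs, 13.9 to 16.9 across them). Many glycolysis genes moved with both splits, and values with and without these libraries are given where they matter. Reads that map to several places were divided among them, so Pgk1, Pgam1 and Pkm had fractional counts in 20 of 20 libraries, Gapdh and Bnip3 in 19, Aldoa in 18 and Eno1 in 17, and their levels are uncertain because near-identical copies share their reads. In bulk RNA, fewer cells of a type and less RNA per cell cannot be told apart.

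Because HIF-1α is known to bind a short core, ACGTG or GCGTG, the 250 bases upstream of each RefSeq start site (mouse build GRCm38.p6; all 35 members matched) were searched for it on both strands. The core was in 32 of 35 members (91.4%), against 63.1% of the 7565 promoter-table genes that reached 3 CPM on average and 41.5% of all 27025 genes in the table. It was in 5 of 5 hypoxia members, 6 of 6 pentose phosphate members and 4 of 6 upper glycolysis members. In these searches a gene was counted when any of its listed start sites had a match. Pdk1, Pgd, Pkm, Hk1, Aldoa and Vegfa each also had a start site with 0 matches to the core. For Vegfa the core lay only upstream of the start site further into the gene, with 0 at the other. The E-box CACGTG, which contains ACGTG and so overlaps the first search, was in 5 of 35 (14.3%, against 10.7% of the expressed genes and 6.86% of all). The core of the antioxidant response element, TGACNNNGC, was also in 5 of 35 (14.3%, against 14.4% and 11.5%), and among pentose phosphate genes only in G6pdx. A match is a description of the letters and no evidence of binding. The stretches below are from members described later, and each of these carries the core. Whether the core had a part in their levels was not tested. Capitals mark the matches on either strand, and the last line marks the antioxidant core of G6pdx.
Slc2a1 (plus strand, chr4:119108664-119108737): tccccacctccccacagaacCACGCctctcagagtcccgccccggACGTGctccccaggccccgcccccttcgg
Ldha (plus strand, chr7:46845710-46845803): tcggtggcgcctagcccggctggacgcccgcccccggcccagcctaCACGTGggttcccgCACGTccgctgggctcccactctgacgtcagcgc
Slc16a3 (plus strand, chr11:120949020-120949066): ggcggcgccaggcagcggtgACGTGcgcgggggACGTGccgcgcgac
Egln3 (minus strand, chr12:54204075-54204123): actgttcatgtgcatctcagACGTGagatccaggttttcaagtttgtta
Pdk1 (plus strand, chr2:71873126-71873174): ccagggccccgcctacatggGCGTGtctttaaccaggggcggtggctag
Pgd (minus strand, chr4:149166717-149166765): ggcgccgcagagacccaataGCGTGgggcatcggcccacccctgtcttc
Taldo1 (plus strand, chr7:141392060-141392108): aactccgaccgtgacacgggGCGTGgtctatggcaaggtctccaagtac
G6pdx (minus strand, chrX:74428895-74428943): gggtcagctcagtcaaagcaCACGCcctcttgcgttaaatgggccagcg
G6pdx, antioxidant core (minus strand, chrX:74428909-74428957): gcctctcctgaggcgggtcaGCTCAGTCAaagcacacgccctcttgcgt

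The first question was how each fraction moved these genes relative to PBS. Of the 5 members grouped as glucose entry and hexokinases 5, 4, 4 and 3 passed higher with RNY1+/+ EVFx, RNY1-/- EVFx, RNY1+/+ ProteinFx and RNY1-/- ProteinFx and 0 passed lower. The 5 are Slc2a1, the hexokinases Hk1, Hk2 and Hk3, and Slc2a6, which is counted by its transporter family and is described below as lysosomal. Of the 6 pentose phosphate members 5 rose with RNY1+/+ EVFx, and 5 fell with either ProteinFx. A gene is said to have passed when its adjusted p was under 0.05, and to have been called when its log2 fold change was also beyond 1 in size (edgeR's quasi-likelihood test, Benjamini-Hochberg adjustment over all genes tested). With RNY1+/+ EVFx, 18 of 34 tested members passed higher and 2 passed lower, where 21.7% and 22.8% of all genes did. Called members numbered 8 higher and 2 lower (all genes 8.24% and 8.19%), and the median log2 fold change of the members was 0.50 against -0.03 over all genes. With RNY1-/- EVFx, 13 passed higher and 8 lower (27.6% and 30.7% of all genes), 7 and 6 were called (9.01% and 13.5%), and the median was 0.19. With RNY1+/+ ProteinFx, 10 passed higher and 14 lower (25.9% and 29.3%), 6 and 8 were called (8.96% and 12.4%), and the median was 0.07. With RNY1-/- ProteinFx, 12 of 35 passed higher and 5 lower (16.7% and 19%), 8 and 4 were called (6.31% and 7.99%), and the median was 0.35. Egln3 was too low to be tested except in fits that held the RNY1-/- ProteinFx libraries, so it entered through the group where it was high, and it is 1 of the 12 that passed and of the 8 that were called there. With the replicate number as a block, members passing higher and lower were 18 and 2, 15 and 10, 10 and 14, and 18 and 13 in the same order of groups. Of all genes 2349 and 2400, 3205 and 3517, 2469 and 2698, and 3125 and 3487 passed. These 4 comparisons share the PBS libraries. Scaling to total counts in place of TMM shifted the median of all genes by -0.18, -0.24, -0.17 and -0.06 in the same order, and under it the members' median was -0.05 with RNY1-/- EVFx and -0.10 with RNY1+/+ ProteinFx. Fold changes also moved with the GC content of the transcript, of which the members had a median of 52.6% against 48.7% to 48.8% for all genes. Single members lay on both sides of the median of all genes, from 41.3% for Hif1a, 41.6% for Bnip3 and 45.7% for P4ha1 to 58.2% for Slc2a6. Spearman's rho between the fold change and GC content over all genes was -0.09, -0.42, -0.46 and -0.49 in the same order, a description over genes that share libraries. With length and GC trends removed the members that passed numbered 18 higher and 4 lower, 18 and 6, 12 and 12, and 15 and 5. Over all genes of these fits it was 2542 and 2951 of 10472, 2795 and 3188 of 10390, 2378 and 3115 of 10482, and 1759 and 2172 of 10510.

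**Figure D1:**
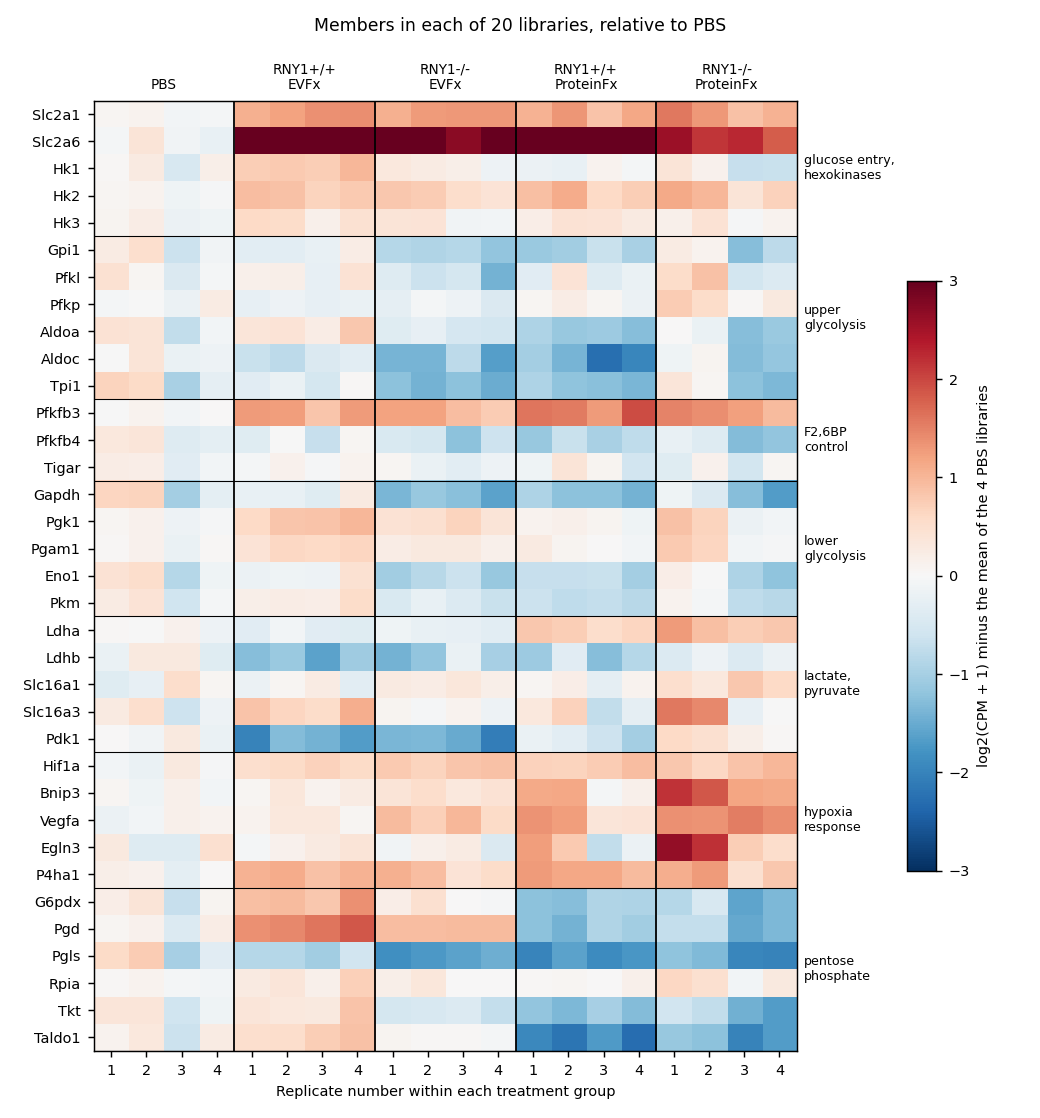
Heat map of the 35 members (rows, grouped by role) in the 20 libraries (columns, by treatment group and replicate number); colour gives log2(CPM + 1) minus the mean of the 4 PBS libraries, cut at 3 in either direction. Slc2a6 is high in all 16 treated libraries, and Taldo1 is low in the 8 ProteinFx libraries. Pgls is low in those 8 and in the RNY1-/- EVFx libraries. PBS replicate 3 and RNY1-/- ProteinFx replicates 3 and 4 are paler or bluer for Tpi1, Gapdh and Eno1.

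Slc2a6, a glucose transporter-family protein of lysosomal membranes in macrophages, changed more than any other member against PBS. Its level was 4.51, 6.49, 4.35 and 3.91 CPM in PBS replicates 1 to 4. It was 76.1, 80.0, 56.7 and 79.7 CPM with RNY1+/+ EVFx and 56.3, 57.6, 36.5 and 44.8 CPM with RNY1-/- EVFx. With ProteinFx it was 49.0, 49.9, 56.0 and 66.3 CPM from RNY1+/+ donors and 33.1, 24.2, 26.3 and 19.2 CPM from RNY1-/- donors. No treated library overlapped PBS, and the RNY1-/- ProteinFx libraries were the lowest of the treated ones. The log2 fold changes were 4.08 (SE 0.18, adjusted p = 3.42e-08, edgeR) with RNY1+/+ EVFx, 3.56 (SE 0.20) with RNY1-/- EVFx, 3.67 (SE 0.19) with RNY1+/+ ProteinFx and 2.46 (SE 0.22, adjusted p = 1.63e-05, edgeR) with RNY1-/- ProteinFx.

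Slc2a1, which encodes the main glucose transporter GLUT1, was between 22.0 and 25.2 CPM in the PBS libraries. The 16 treated libraries ranged from 43.2 to 72.2 CPM and did not overlap PBS. The 4 log2 fold changes lay close together at 1.48 (SE 0.11), 1.51 (SE 0.11), 1.30 (SE 0.13) and 1.32 (SE 0.15) in the order of the groups above, with adjusted p from 1.05e-06 to 0.000106 by edgeR. Hk2, the inducible hexokinase, rose with the 4 fractions as well, from 53.8 ± 4.0 CPM (SD, n = 4) with PBS to group means of 84.0 to 97.2 CPM, with log2 fold changes of 0.88 to 1.02. Hk1 rose with RNY1+/+ EVFx alone among the 4 (log2 fold change 0.98, adjusted p = 0.000399, edgeR), and was 0.36, 0.05 and -0.10 in the other three. Hk3, the hexokinase of myeloid cells, passed higher in 3 comparisons with log2 fold changes of 0.41 to 0.62, and had 0.23 with RNY1-/- ProteinFx.

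**Figure D2:**
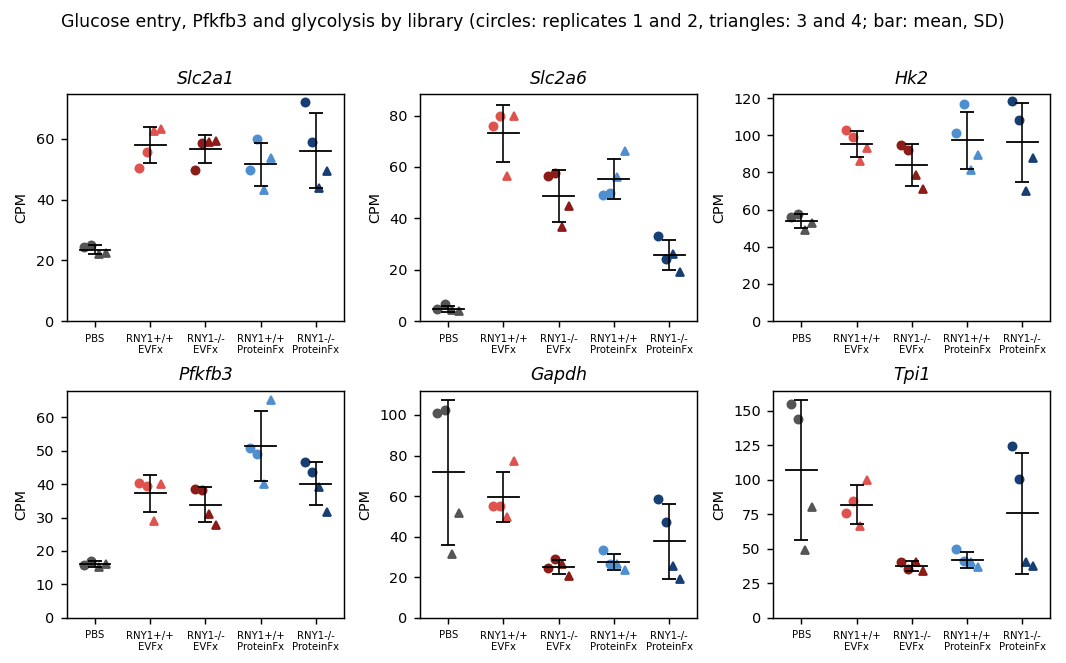
CPM of Slc2a1, Slc2a6, Hk2, Pfkfb3, Gapdh and Tpi1 in each library by treatment group (circles, replicates 1 and 2; triangles, replicates 3 and 4; horizontal line and bar, mean and SD of 4 libraries). Slc2a1, Slc2a6, Hk2 and Pfkfb3 have no treated library within the PBS range, while PBS itself spans 31.4 to 102 CPM for Gapdh and 48.8 to 155 CPM for Tpi1.

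Fructose 2,6-bisphosphate is the strongest known activator of phosphofructokinase, and Pfkfb3 encodes the enzyme that makes it in activated macrophages. Pfkfb3 was 15.8, 17.1, 15.1 and 16 CPM with PBS. It was 40.2, 39.4, 29.0 and 40.1 CPM with RNY1+/+ EVFx, and 38.5, 38.1, 31.0 and 27.8 CPM with RNY1-/- EVFx. With ProteinFx it was 50.9, 48.9, 40.0 and 65.2 CPM from RNY1+/+ donors and 46.5, 43.5, 39.0 and 31.6 CPM from RNY1-/- donors. Every treated library was above every PBS library, and Pfkfb3 rose in the 4 comparisons by log2 1.39 (SE 0.13), 1.32 (SE 0.13), 1.85 (SE 0.16) and 1.39 (SE 0.14; adjusted p from 3.45e-06 to 3.89e-05, edgeR). Pfkfb4, another isoform of the family, fell with RNY1+/+ ProteinFx (log2 fold change -1.0, adjusted p = 0.0117, edgeR) and did not pass in the others. Tigar, whose product lowers fructose 2,6-bisphosphate, did not pass in any of the 4, with log2 fold changes between -0.11 and 0.20.

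The enzymes of the glycolytic pathway did not move as a block. Of the 6 upper glycolysis members 0 passed with RNY1+/+ EVFx, 3 passed lower with RNY1-/- EVFx and 4 with RNY1+/+ ProteinFx (30.7% and 29.3% of all genes), and 1 passed higher with RNY1-/- ProteinFx (16.7% of all genes; Pfkp, the platelet phosphofructokinase, log2 fold change 0.51). Aldoc, an aldolase, had 12.1, 16.2, 10.5 and 10.9 CPM with PBS and 5.55, 4.06, 1.76 and 2.43 CPM with RNY1+/+ ProteinFx, groups that do not overlap, and fell by log2 1.67 (SE 0.30, adjusted p = 0.000726, edgeR). It also fell with RNY1-/- EVFx by log2 1.27 (SE 0.23). Tpi1, triosephosphate isomerase, had 155, 144, 48.8 and 80.3 CPM with PBS. It lay between 33.7 and 40.7 CPM with RNY1-/- EVFx and between 36.9 and 50.1 CPM with RNY1+/+ ProteinFx. The second of these ranges reached above PBS replicate 3, the lowest PBS library for Tpi1, and the log2 fold changes were -1.28 (SE 0.30, adjusted p = 0.00364) and -1.18 (SE 0.30, adjusted p = 0.00624, edgeR).

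In lower glycolysis, Pgk1 and Pgam1 rose with RNY1-/- EVFx while Gapdh and Eno1 fell. Pgk1, phosphoglycerate kinase, rose with RNY1+/+ EVFx from 69.9 to 84.9 CPM with PBS to 119 to 157 CPM (log2 fold change 1.01, SE 0.11, adjusted p = 2.34e-05, edgeR) and with RNY1-/- EVFx (0.73). Pgam1 rose in the same comparisons by log2 0.75 and 0.48. Gapdh, which makes 1,3-bisphosphoglycerate, had 101, 102, 31.4 and 51.9 CPM with PBS. It had 55.3, 55.2, 49.7 and 77.4 CPM with RNY1+/+ EVFx and 24.4, 28.8, 26.5 and 20.5 CPM with RNY1-/- EVFx. All 4 RNY1-/- EVFx libraries were under the lowest PBS library, and Gapdh fell by log2 1.28 (SE 0.32, adjusted p = 0.00505, edgeR). It fell by log2 1.21 (SE 0.32) with RNY1+/+ ProteinFx, where 1 of 4 libraries lay above PBS replicate 3. Eno1 fell in the same comparisons by log2 0.80 and 0.72, and neither passed in a fit without the trends of fold change over GC content and length (-0.24, adjusted p = 0.152, and -0.16, adjusted p = 0.324, edgeR). Without PBS replicate 3, members called against PBS numbered 8, 11, 17 and 13 in the order of the groups, against 10, 13, 14 and 12 with it. All genes called numbered 1906, 2905, 2854 and 2028 without it, against 1774, 2416, 2311 and 1552.

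Between fractions the 6 pentose phosphate members had a median log2 fold change of -1.92 for RNY1+/+ ProteinFx against RNY1+/+ EVFx, where the median of all genes was -0.02, and of -1.02 for RNY1-/- ProteinFx against RNY1-/- EVFx, where it was 0.01. The 6 other tested genes of the pathway had medians of 0.57, with 4 passing higher and 1 lower, and 0.27, with 2 passing higher and 0 lower. Of all genes 31.1% passed higher and 32.2% lower in the first comparison, and 14.6% and 14.6% in the second. Pgd, 6-phosphogluconate dehydrogenase of the oxidative arm, had 268, 282, 196 and 302 CPM with PBS. It had 675, 699, 786 and 942 CPM with RNY1+/+ EVFx and 495, 493, 500 and 496 CPM with RNY1-/- EVFx. With ProteinFx it had 109, 95.8, 138 and 126 CPM from RNY1+/+ donors and 156, 157, 88.8 and 101 CPM from RNY1-/- donors. The PBS libraries thus lay between the vesicle and protein groups with no overlap on either side. Against PBS, Pgd rose by log2 1.74 (SE 0.16, adjusted p = 5.26e-06) with RNY1+/+ EVFx and 1.16 (SE 0.13, adjusted p = 3.19e-05) with RNY1-/- EVFx, and fell by log2 0.99 (adjusted p = 0.000356) and 1.0 (adjusted p = 0.00382, edgeR) with the ProteinFx.

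G6pdx, glucose 6-phosphate dehydrogenase, which opens the pathway, had 89.6, 102, 47.8 and 81.7 CPM with PBS. It had 146, 149, 136 and 203 CPM with RNY1+/+ EVFx, all above PBS, and rose by log2 1.15 (SE 0.21, adjusted p = 0.00101, edgeR). RNY1-/- EVFx gave 76.0 to 108 CPM, within and just above the PBS range (log2 fold change 0.36, adjusted p = 0.143, edgeR). It passed with the replicate number as a block (0.39, adjusted p = 0.0265, edgeR), as did Pfkl (-0.66), Pfkfb4 (-0.65) and Slc16a1 (0.52) in that comparison. With RNY1+/+ ProteinFx it had 31.2 to 41.2 CPM, below every PBS library, and fell by log2 0.98 (adjusted p = 0.00221, edgeR). With RNY1-/- ProteinFx it had 42.3, 54.8, 25.1 and 29.6 CPM, of which replicate 2 lay within the PBS range, and fell by log2 1.0 (adjusted p = 0.0152, edgeR).

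Taldo1 and Tkt, transaldolase and transketolase, carry the non-oxidative arm. Taldo1 had 295, 339, 175 and 324 CPM with PBS and 387, 393, 459 and 508 CPM with RNY1+/+ EVFx, a rise of log2 0.80 (adjusted p = 0.00533, edgeR). With RNY1+/+ ProteinFx it had 70.7, 59.1, 84.2 and 55.7 CPM and with RNY1-/- ProteinFx 124, 117, 68.1 and 85.1 CPM. These 8 libraries were below every PBS library, with falls by log2 1.91 (SE 0.21, adjusted p = 1.86e-05) and 1.46 (SE 0.23, adjusted p = 0.00105, edgeR). Tkt followed with 0.60 for RNY1+/+ EVFx, -0.35 for RNY1-/- EVFx, which did not pass, and falls by log2 1.11 and 1.04 for the ProteinFx. Pgls, the lactonase of the oxidative arm, differed from its neighbours: it was not higher with RNY1+/+ EVFx (log2 fold change -0.84, adjusted p = 0.0546) and fell by log2 1.66, 1.90 and 1.73 with the other three fractions, from PBS values of 61.2, 69.6, 19.8 and 31.9 CPM to 9.34 to 17 CPM. Without RNY1-/- ProteinFx replicates 3 and 4, Pgls (-1.46, adjusted p = 0.0770) and Tkt (-0.70, adjusted p = 0.126, edgeR) no longer passed in that group. Rpia, ribose 5-phosphate isomerase, passed higher in 3 comparisons with log2 fold changes of 0.38 to 0.59 and had 0.24 with RNY1+/+ ProteinFx.

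**Figure D3:**
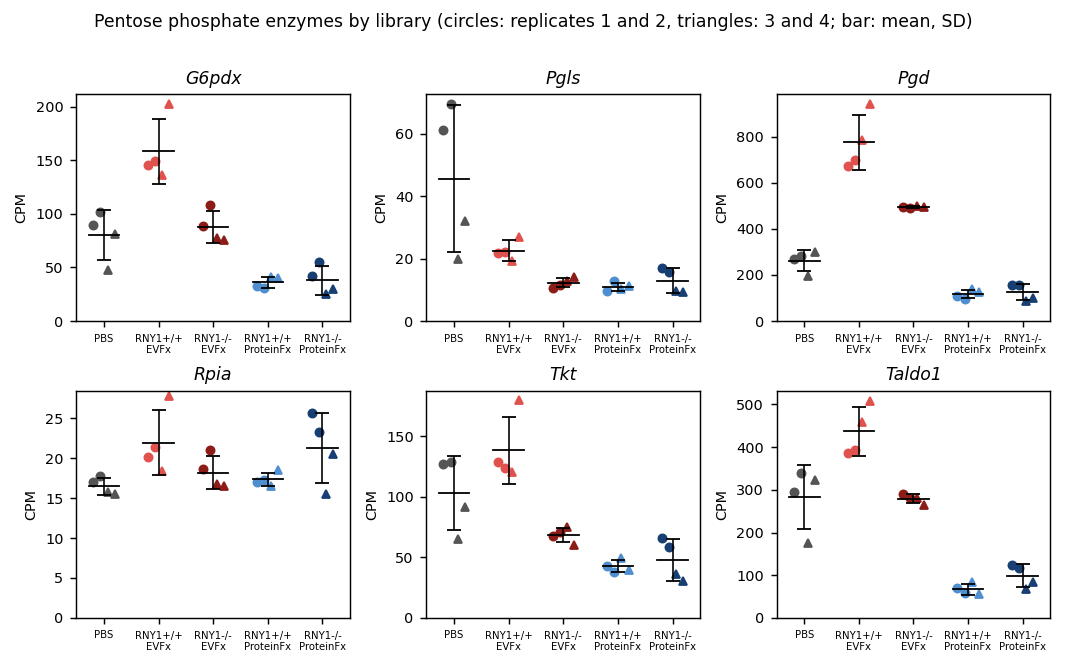
CPM of the 6 pentose phosphate members in each library by treatment group (circles, replicates 1 and 2; triangles, replicates 3 and 4; horizontal line and bar, mean and SD of 4 libraries). Pgd stands at means of 262 CPM with PBS, 775 and 496 CPM with EVFx and 117 and 126 CPM with ProteinFx, and Taldo1 is lowest in the 8 ProteinFx libraries.

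The fractions were also compared with each other within a donor genotype. RNY1+/+ ProteinFx against RNY1+/+ EVFx gave 6 members that passed higher and 19 that passed lower of 33 tested (31.1% and 32.2% of all genes), with 1 and 9 called (6.71% and 6.82%). All 6 pentose phosphate members passed lower here, led by Pgd (log2 fold change -2.73, SE 0.13, adjusted p = 4.65e-10), Taldo1 (-2.70, SE 0.13, adjusted p = 4.32e-10), G6pdx (-2.13, SE 0.13) and Tkt (-1.71, SE 0.13, edgeR). Aldoa was lower by log2 fold change -1.59 and Pkm, the pyruvate kinase of these cells, by -1.03, and Pdk1 was the called member that was higher (1.14, SE 0.19). With RNY1-/- fractions 7 members passed higher and 5 lower of 34 (14.6% and 14.6%), and 4 and 4 were called (4.82% and 4.15%). Pgd (-2.15, SE 0.16), Taldo1 (-1.67, SE 0.15) and G6pdx (-1.35, SE 0.19) were again called lower, together with Slc2a6 (-1.11, SE 0.17). Egln3 (2.33, SE 0.50), Pdk1 (1.79, SE 0.17), Bnip3 (1.08, SE 0.19) and Ldha (1.0, SE 0.11) were called higher. Egln3 was testable here only because the RNY1-/- ProteinFx libraries raised its mean over the limit. The correlation with GC content was -0.49 in the first comparison and 0.07 in the second. With length and GC trends removed, 6 members were called in the first comparison in place of 10, and 7 in the second in place of 8. Of all genes 1024 were called in place of 1413, and 888 in place of 934. With the replicate number as a block, Hk1 (-0.49), Aldoc (0.86), Tpi1 (0.75), Ldhb (0.82) and Slc16a3 (0.77) also passed in the second (adjusted p from 0.0149 to 0.0356, edgeR).

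At the end of glycolysis, Ldha rose with the ProteinFx and Pdk1 fell with the EVFx. Ldha, whose lactate dehydrogenase subunit favours lactate, had 286, 276, 309 and 254 CPM with PBS. It had 492, 472, 408 and 436 CPM with RNY1+/+ ProteinFx and 682, 528, 469 and 490 CPM with RNY1-/- ProteinFx, above every PBS and EVFx library. It rose by log2 0.85 (adjusted p = 5.03e-05) and 1.01 (adjusted p = 0.00021, edgeR) with the ProteinFx, and had -0.11 and 0.01 with the EVFx. Pdk1, a kinase that keeps pyruvate out of the mitochondria by inhibiting pyruvate dehydrogenase, had 35, 32.3, 43.2 and 30.4 CPM with PBS, 8.01 to 13.5 CPM with RNY1+/+ EVFx and 7.57 to 13.1 CPM with RNY1-/- EVFx, with no overlap. Pdk1 fell by log2 1.5 (SE 0.18, adjusted p = 4.8e-05) and 1.39 (SE 0.17, adjusted p = 5.93e-05, edgeR), and had -0.37 and 0.40 with the ProteinFx, neither of which passed. Ldhb, the other lactate dehydrogenase subunit, fell by log2 1.48, 1.04 and 0.99 with the first 3 fractions at levels of 1.1 to 6.80 CPM. Slc16a3, the lactate exporter MCT4, rose with RNY1+/+ EVFx (log2 fold change 0.94, adjusted p = 0.00566, edgeR), and Slc16a1, the transporter MCT1, did not pass against PBS.

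Of the hypoxia members, Hif1a, Bnip3, Vegfa and P4ha1 passed higher in the 4 comparisons with PBS (21.7%, 27.6%, 25.9% and 16.7% of all genes), and Egln3 is given apart because it was testable only with the RNY1-/- ProteinFx libraries. The 22 other hypoxia genes tested went both ways, with 5, 3, 5 and 7 passing higher and 8, 7, 8 and 3 lower. Hif1a, which encodes HIF-1α, had 50.0, 46.3, 65.4 and 51.8 CPM with PBS and 75.6 to 107 CPM in the 16 treated libraries, with log2 fold changes of 0.77, 1.04, 0.94 and 0.90. P4ha1, a collagen prolyl hydroxylase subunit, rose by log2 1.19 (SE 0.12), 1.0, 1.31 (SE 0.13) and 1.01 (SE 0.17). The remaining 3 were highest on average with RNY1-/- ProteinFx. Bnip3, a mitophagy receptor, had 27.7, 24.3, 29.6 and 25.0 CPM with PBS, 59.8, 61.0, 25.6 and 29.5 CPM with RNY1+/+ ProteinFx and 122, 99.1, 61.9 and 59.6 CPM with RNY1-/- ProteinFx. In both ProteinFx groups replicates 1 and 2 were above replicates 3 and 4. Bnip3 rose by log2 0.37 (adjusted p = 0.024), 0.68 (adjusted p = 0.000447), 0.89 (adjusted p = 0.0126) and 1.75 (SE 0.21, adjusted p = 0.00016, edgeR). The first of these did not pass with total counts (0.20, adjusted p = 0.195), the fit of all 20 libraries (0.35, adjusted p = 0.227) or length and GC trends removed (0.24, adjusted p = 0.0714), and the third did not pass with those trends removed (0.48, adjusted p = 0.0955, edgeR).

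Vegfa, the vascular endothelial growth factor, had 22.5 to 28.4 CPM with PBS and 66.0 to 75.3 CPM with RNY1-/- ProteinFx, and rose by log2 1.51 (SE 0.13, adjusted p = 1.23e-05, edgeR). Its RNY1+/+ ProteinFx values of 66.0, 61.8, 33.2 and 34.5 CPM split between the same replicates as those of Bnip3, and its rise with RNY1+/+ EVFx (0.38, adjusted p = 0.0309) did not pass with total counts (0.20, adjusted p = 0.207, edgeR). Egln3, the prolyl hydroxylase PHD3 that marks HIF-1α for degradation, had 2.05, 0.927, 0.915 and 2.49 CPM with PBS. With RNY1+/+ ProteinFx it had 4.98, 3.29, 0.503 and 1.21 CPM, the third of which is 2 counts. With RNY1-/- ProteinFx it had 14.5, 10.5, 3.19 and 2.59 CPM, so that replicates 1 and 2 carried most of its rise of log2 2.39 (SE 0.55, adjusted p = 0.00861, edgeR).

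**Figure D4:**
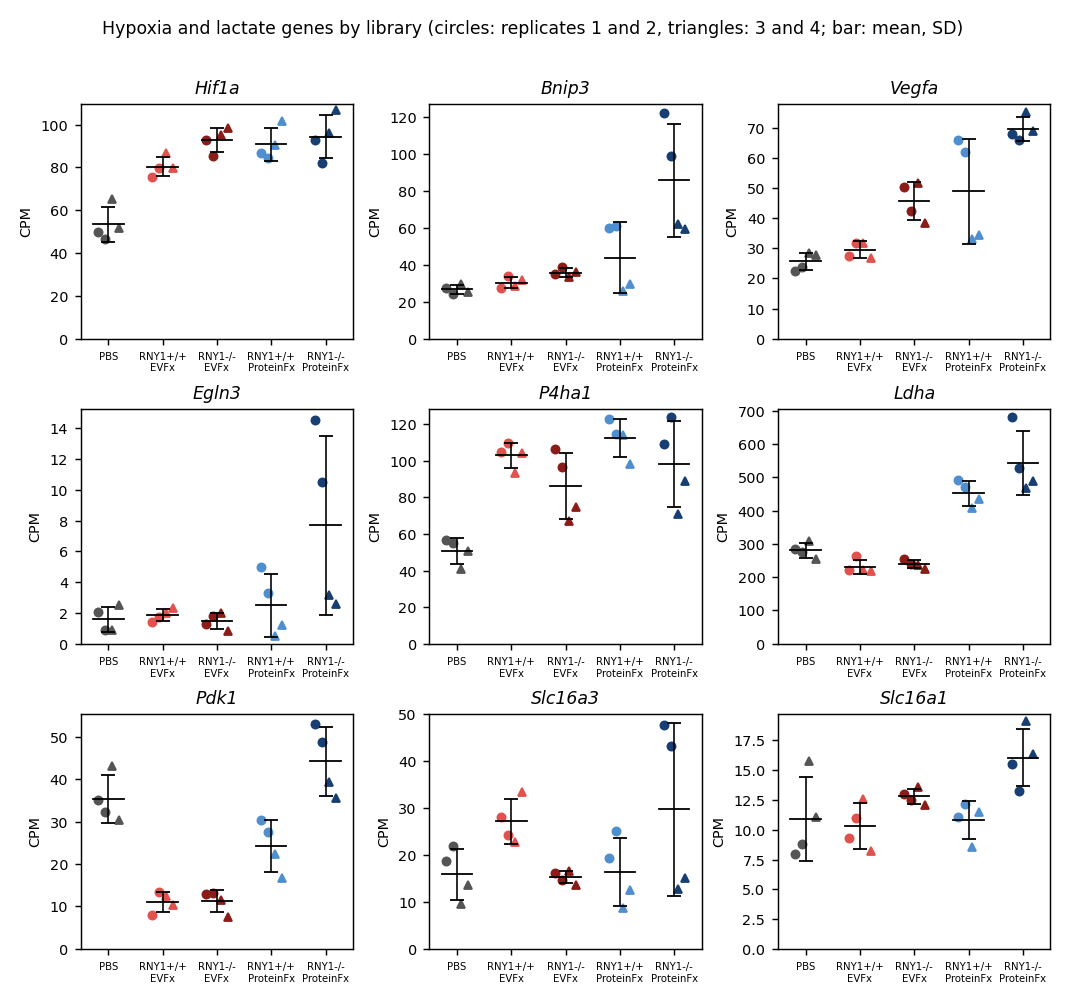
CPM of the 5 hypoxia members and of Ldha, Pdk1, Slc16a3 and Slc16a1 in each library by treatment group (circles, replicates 1 and 2; triangles, replicates 3 and 4; horizontal line and bar, mean and SD of 4 libraries). In the RNY1-/- ProteinFx group replicates 1 and 2 stand above replicates 3 and 4 for Bnip3, Egln3, Slc16a3 and Pdk1, and Ldha is at 408 CPM or more in the 8 ProteinFx libraries and at 309 CPM or less in the other 12.

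The study's main contrast was the RNY1 genotype of the donor. For the vesicle fractions, RNY1-/- EVFx gave lower levels of glycolytic and pentose phosphate genes than RNY1+/+ EVFx. Of 33 tested members 4 passed higher and 18 lower (25.5% and 26.6% of all genes), 0 and 2 were called (0.378% and 1.98%), and the median log2 fold change was -0.49 against 0.00 over all genes. All 5 lower glycolysis members, 5 of 6 upper glycolysis members and 5 of 6 pentose phosphate members passed lower, while 3 of 4 tested hypoxia members passed higher. The mitochondrial share of counts separated the groups as well, at 3.80% to 4.99% with RNY1+/+ EVFx and 5.41% to 6.14% with RNY1-/- EVFx, and both tested epithelial markers passed higher (log2 fold changes 0.94 and 1.13), and the part of either in the members' values was not tested. The called members were Gapdh (log2 fold change -1.18, SE 0.14, adjusted p = 0.000199) and Tpi1 (-1.06, SE 0.12, adjusted p = 0.000199, edgeR), both with no overlap between the groups. Tpi1 had 76.1, 84.6, 66.8 and 99.9 CPM with RNY1+/+ EVFx and 40.7, 35.5, 40.4 and 33.7 CPM with RNY1-/- EVFx. Tkt (-0.95, SE 0.12), Pfkl (-0.93, SE 0.23), Eno1 (-0.90, SE 0.15), Aldoc (-0.83, SE 0.21), Pgls (-0.82, SE 0.14) and Aldoa (-0.82, SE 0.11) followed, with Slc16a3 (-0.78, SE 0.13) and G6pdx (-0.78, SE 0.13). Vegfa was the largest in the other direction, from 26.7 to 31.9 CPM with RNY1+/+ EVFx to 38.5 to 51.7 CPM with RNY1-/- EVFx (0.70, adjusted p = 0.000293, edgeR). Slc2a1, Hk2, Pfkfb3 and Ldha did not pass, at 0.04, -0.11, -0.07 and 0.12.

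Across all genes the log2 fold change and the GC content of the transcript had a Spearman's rho of -0.65, a description over 10019 genes that share libraries, and the members had a median GC content of 52.6% against 48.6% for all genes. With length and GC trends removed, 0 members were called, 3 passed higher and 12 lower. Of the 10019 genes 93 were called, 1690 passed higher and 1628 lower. Gapdh (-0.91, adjusted p = 0.000178), Tpi1 (-0.74, adjusted p = 0.00025), Tkt (-0.59, adjusted p = 0.000525), Pgd (-0.55, adjusted p = 0.00081) and Gpi1 (-0.51, adjusted p = 0.00253) still passed lower and Vegfa still passed higher (0.87, adjusted p = 0.000221, edgeR). Slc2a1 (0.39, adjusted p = 0.0101) and Ldha (0.33, adjusted p = 0.00588, edgeR) now passed higher. Of the hypoxia members Bnip3 no longer passed (0.06, adjusted p = 0.639) and P4ha1 passed lower (-0.31, adjusted p = 0.0467, edgeR). Slc2a6 went from -0.51 (adjusted p = 0.00776) to 0.01 (adjusted p = 0.944), Pgam1 from -0.26 to 0.03 and Hif1a from 0.28 to -0.04. RNY1+/+ EVFx replicate 4 was the highest library of its group for Gpi1, Eno1, Pkm, Tkt and Taldo1. Without it 1 member was called, and without replicate 3 of that group 4 were. All genes called numbered 99 and 327 in these fits, against 243 with every library.

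**Figure D5:**
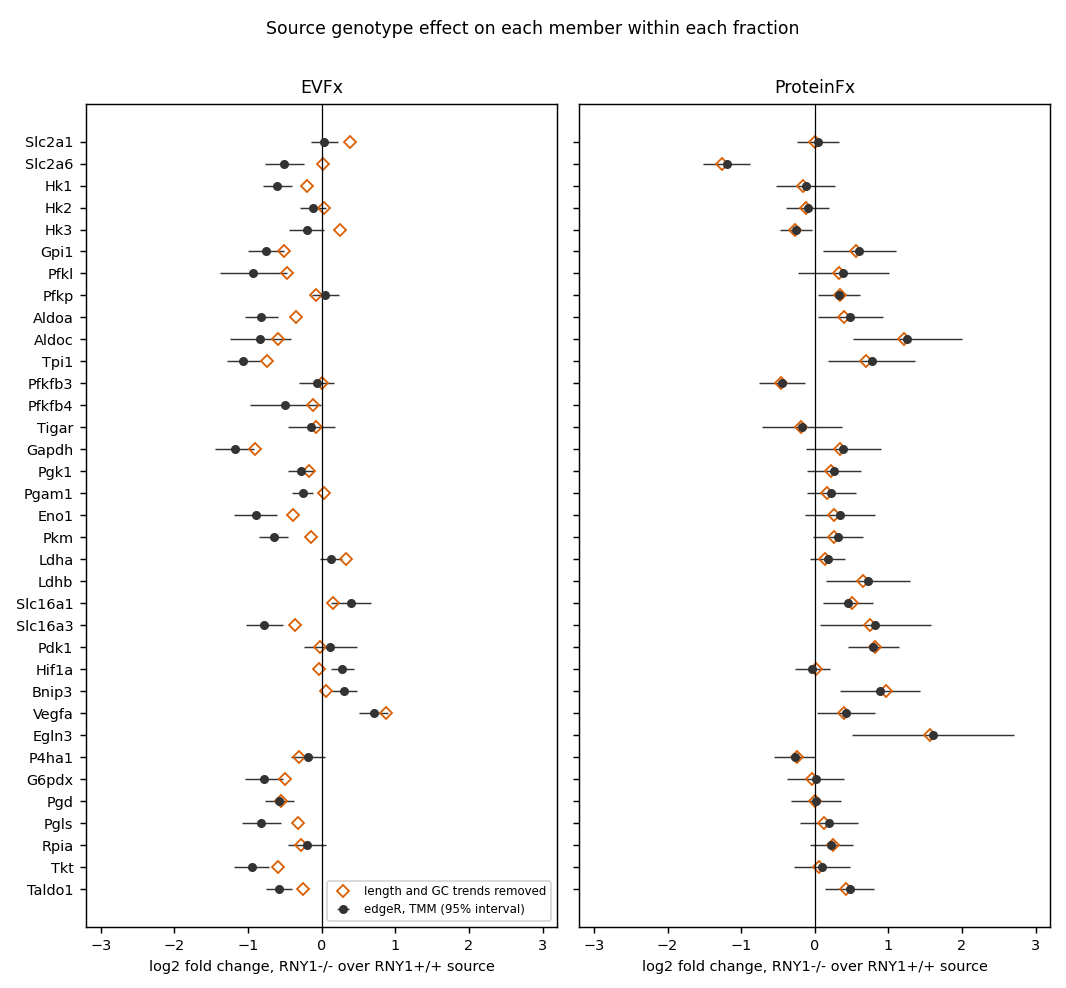
log2 fold change of each member between RNY1-/- and RNY1+/+ donors, for EVFx (left) and ProteinFx (right); black points with bars are edgeR estimates with 95% intervals, open orange diamonds the same with length and GC trends removed. In EVFx most glycolytic and pentose phosphate points lie left of 0 and move towards it when the trends are removed, and in ProteinFx Slc2a6 is the leftmost at -1.20.

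For the protein fractions few members differed by donor genotype. Of 34 tested, 1 passed higher and 1 lower (2.20% and 3.37% of all genes), and 0 and 1 were called (0.659% and 1.17%). Slc2a6 was called lower, from 49.0 to 66.3 CPM with RNY1+/+ ProteinFx to 19.2 to 33.1 CPM with RNY1-/- ProteinFx, groups that do not overlap (log2 fold change -1.20, SE 0.16, adjusted p = 0.000923, edgeR). It had -1.25 with length and GC trends removed, and in that fit Aldoc (1.21, adjusted p = 0.0363), Slc16a1 (0.51, adjusted p = 0.0399), Taldo1 (0.42, adjusted p = 0.0462) and Pdk1 (0.82, adjusted p = 0.0114, edgeR) passed higher. Pdk1 passed higher, from 30.4, 27.6, 22.4 and 16.7 CPM to 53.1, 48.8, 39.4 and 35.5 CPM (0.79, SE 0.18, adjusted p = 0.0193, edgeR). It did not pass without any of 3 single libraries, RNY1+/+ ProteinFx replicate 3 (0.75, adjusted p = 0.0564) or 4 (0.65, adjusted p = 0.0695) or RNY1-/- ProteinFx replicate 1 (0.71, adjusted p = 0.0584, edgeR). Egln3 (1.61, adjusted p = 0.129), Aldoc (1.26, adjusted p = 0.0736), Bnip3 (0.89, adjusted p = 0.0906) and Slc16a3 (0.82, adjusted p = 0.263, edgeR) did not pass. Deviations of same-numbered libraries from their group means correlated between -0.28 and 0.21 in this comparison, with 2 of 4 pairs over 0.1. Bnip3 and Egln3 were higher with RNY1-/- in each of the 4 same-numbered sets of libraries. With the replicate number as a block Egln3 (1.5, adjusted p = 0.0164), Aldoc (1.15, adjusted p = 0.0276) and Bnip3 (0.90, adjusted p = 0.00829, edgeR) passed. Egln3 was testable here only because the RNY1-/- ProteinFx libraries raised its mean over the limit, so it entered through the group where it was high. The members' counts rested on the split within RNY1-/- ProteinFx. With replicates 1 and 2 alone 17 members passed higher and 1 lower and 7 were called. Of all genes 1358 passed higher and 1546 lower and 405 were called. With replicates 3 and 4 alone 1 member passed higher and 3 lower and 1 was called. Of all genes 383 passed higher and 483 lower and 180 were called, so the counts of all genes moved with the split as well.

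Whether the donor genotype acted differently in the fractions was tested as the effect in EVFx minus that in ProteinFx. Of 34 members 1 passed higher and 14 lower (16.2% and 16.8% of all genes), 0 and 11 were called (2.46% and 5.33%), and the median difference was -0.58 against 0.00 over all genes. The differences were -2.1 (SE 0.45, adjusted p = 0.00479) for Aldoc, -1.84 (SE 0.36, adjusted p = 0.00344) for Tpi1, -1.61 (SE 0.44, adjusted p = 0.0129) for Slc16a3 and -1.58 (SE 0.32, adjusted p = 0.00383, edgeR) for Gapdh on the log2 scale. Among pentose phosphate members Taldo1 (-1.05, SE 0.21), Tkt (-1.05, SE 0.24) and Pgls (-1.02) were called. Slc2a6 passed in the other direction (0.69, adjusted p = 0.0266, edgeR), with -0.51 in EVFx and -1.20 in ProteinFx. These differences too rested on RNY1-/- ProteinFx replicates 1 and 2, as did the counts of all genes. Without that pair 0 members were called and 4 passed lower, with 101 of all genes called and 123 passing lower. Without replicates 3 and 4 there were 15 members called and 23 passing lower, with 1903 of all genes called and 2881 passing lower. With every library 814 of all genes were called and 1755 passed lower. The correlation of the difference with GC content over all genes was -0.59. With length and GC trends removed 6 members were called, 5 lower and Slc2a6 higher (1.26, adjusted p = 0.00114, edgeR). Of all genes 195 were called lower and 225 higher in that fit.

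A further 83 genes of these pathways that are no members were listed for comparison, and 57 to 59 of them were tested in each comparison. Against PBS, 18 passed higher and 18 lower of 58 with RNY1+/+ EVFx, 19 and 15 of 58 with RNY1-/- EVFx, 14 and 14 of 57 with RNY1+/+ ProteinFx and 14 and 6 of 58 with RNY1-/- ProteinFx. Me1, the cytosolic malic enzyme and another source of NADPH, had 1.23 to 3.51 CPM with PBS and 22.0 to 33.5 CPM in the 8 EVFx libraries (log2 fold change 3.61, SE 0.24, and 3.58, SE 0.25), and was 1.20 to 3.07 CPM in the 8 ProteinFx libraries. Gpd2, the mitochondrial glycerol phosphate dehydrogenase, rose with the 4 fractions by log2 2.45, 2.40, 1.93 and 1.18. Known hypoxia genes among them went both ways. Epas1, which encodes HIF-2α, fell from 32.2 CPM on average with PBS to 2.94 and 4.32 CPM with EVFx (log2 fold change -3.28, SE 0.17, and -2.61, SE 0.20), Ndrg1 fell by log2 2.30, 2.49 and 2.22 with the first 3 fractions, and Plin2, a lipid droplet coat protein, fell by log2 1.86, 2.1 and 1.31. Ero1a, an oxidase of the endoplasmic reticulum, rose with the 4 fractions by log2 1.32 to 1.65. Between donor genotypes in ProteinFx, Ndrg1 (1.55, SE 0.38, adjusted p = 0.0324) and Ankrd37 (1.24, SE 0.27, adjusted p = 0.0184, edgeR) were called higher with RNY1-/-, and in EVFx Bsg (-1.18, SE 0.14), a partner of the lactate transporters, was called lower.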

How the data were processed

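RNA from 20 BMDM libraries was sequenced at the 3' end from oligo(dT) primers with unique molecular identifiers. Per the labels and the study's methods, the authors trimmed reads with fastp 0.24.0, aligned them with STAR 2.7.11 to GRCm39, collapsed identifiers, and counted gene exons and 3' UTRs with featureCounts of Subread 2.1.1, strand-specifically and with reads of several places divided. The deposited table gives estimated counts per gene, in part fractional, and the authors' CPM values.

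Counts were rounded to whole numbers and tested with edgeR 4.0.16 (R 4.3.3; TMM factors, quasi-likelihood, filterByExpr, and an average of 3 CPM or more in the fitted libraries) with only the groups compared in each fit, and p-values were adjusted over all genes tested. The printed CPM are the deposited ones. The donor's RNY1 deletion cannot be checked in these wild-type recipient cells. The code was tested on simulated data. Alternatives were DESeq2 1.42.0, total-count scaling, no CPM limit, all 20 libraries in 1 fit, a replicate block, length and GC trends removed (natural splines with 4 degrees of freedom; lengths and GC contents from a GENCODE annotation of GRCm38, found for all 35 members and 96.7% to 97.1% of tested genes), each library left out, and no fold limit. Leaving out pairs of RNY1-/- ProteinFx libraries and the antioxidant core were added after the data were seen. Deviations of same-numbered libraries correlated by over 0.1 in 4 of 4 pairs for RNY1-/- EVFx against PBS (0.13 to 0.38) and RNY1-/- ProteinFx against RNY1-/- EVFx (0.22 to 0.40); the labels give the numbers no meaning. Promoters came from RefSeq on GRCm38.p6, a different build from that of the counts, and were joined by gene symbol. The members and lists were chosen with earlier results of these data known. Any member could be named; standard errors were given for at most 10 members a comparison, those of largest fold change that passed, and role groups have examples of largest fold change. Of other pathway genes at most 8 called ones a comparison, of largest fold change and at 10 CPM or more on average, were named. No p is given over the member list alone.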

Additional observations from a re-analysis of the deposited data

Results flagged for a closer look

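In 11 of the 175 member and group combinations, the highest or lowest of 4 libraries lay far from the other three for the spread of the group, which chance gives in about 1 of 20 groups. Most were in RNY1+/+ EVFx, where the highest libraries were at 67.1 CPM for Hk1 (next 57.2), 73.2 for Gpi1 (next 54.0), 85.7 for Eno1 (next 57.2), 389 for Pkm (next 308), 180 for Tkt (next 129) and 264 for Ldha (next 221), and the lowest at 56.7 for Slc2a6 (next 76.1) and 29.0 for Pfkfb3 (next 39.4). The high libraries were replicate 4 except for Ldha, which was replicate 2, and the low ones were replicate 3. In RNY1-/- EVFx the lowest libraries were at 49.9 CPM for Slc2a1 (next 58.5) and 27.1 for Gpi1 (next 33.2), and in RNY1+/+ ProteinFx at 30.3 for Eno1 (next 38.3).

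The donor genotype effect differed between EVFx and ProteinFx for 15 members by the interaction test of edgeR. The log2 difference was -1.37 for Gpi1, -1.33 for Pfkl, -1.30 for Aldoa, -2.1 for Aldoc, -1.84 for Tpi1, -1.58 for Gapdh, -1.24 for Eno1, -0.97 for Pkm, -1.61 for Slc16a3, -0.80 for G6pdx, -0.59 for Pgd, -1.02 for Pgls, -1.05 for Tkt, -1.05 for Taldo1 and 0.69 for Slc2a6. Without RNY1-/- ProteinFx replicates 1 and 2, 227 of all genes passed higher and 123 lower, against 1695 and 1755 with them. Of the members 0 passed higher and 4 lower, so that at least 11 of the 15, Slc2a6 among them, did not pass. Of the 10 with the largest differences, 7 did not, with adjusted p by edgeR of 0.138 for Aldoc, 0.392 for Slc16a3, 0.0668 for Gapdh, 0.0820 for Gpi1, 0.533 for Pfkl, 0.190 for Eno1 and 0.125 for Tkt.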

How the results depend on the processing

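The 89 results recomputed here were those of the passing members of largest fold change, at most 10 a comparison, and of Eno1. Of 1299 recomputed values 1271 kept their direction and side of the threshold. A further 28 kept their direction but no longer passed, and none reversed. Members outside these 89 results did reverse. For the donor genotype in EVFx with length and GC trends removed, Hif1a went from 0.28 to -0.04, Pgam1 from -0.26 to 0.03 and Slc2a6 from -0.51 to 0.01. With no fold limit, members counted against PBS were 20 (of 4807 genes), 21 (of 6256), 24 (of 5981) and 17 (of 3878) in the order of the groups. Between donor genotypes they were 22 (of 5379) in EVFx and 2 (of 583) in ProteinFx. Between fractions they were 25 (of 6608) for RNY1+/+ and 12 (of 3043) for RNY1-/-, and for the interaction 15 (of 3450). With length and GC trends removed, members called were 0 (of 93 genes) for the donor genotype in EVFx and 2 (of 212) in ProteinFx. They were 6 (of 1024) for RNY1+/+ ProteinFx against EVFx, and 6 (of 420) for the interaction. With the filterByExpr filter alone, 2 members (of 367 genes) were called for the genotype in EVFx. With all 20 libraries in 1 fit, 3 members (of 209 genes) were called for the genotype in ProteinFx.

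With the replicate block, called members were 10 (of 1772 genes), 12 (of 2442), 12 (of 2274) and 13 (of 1694) against PBS. Between donor genotypes they were 2 (of 225) in EVFx and 3 in ProteinFx, where 60 of all genes were called higher and 113 lower. Between fractions they were 10 (of 1430) for RNY1+/+ and 7 (of 933) for RNY1-/-, and for the interaction 12 (of 805). The block turned no direction. Counted as pairs of a member and a comparison, 31 further results passed over the 9 comparisons and 2 no longer passed. Of the 31, 14 were for RNY1-/- ProteinFx against PBS. In that comparison 3125 of all genes passed higher and 3487 lower with the block, against 1817 and 2061 without it. The counts of all genes thus rose there as well. Outside RNY1-/- EVFx against PBS and RNY1-/- ProteinFx against RNY1-/- EVFx, same-numbered libraries correlated between -0.37 and 0.64. The highest value belonged to RNY1-/- ProteinFx against PBS, where 3 of 4 pairs were over 0.1 and the lowest was 0.02.

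Leaving out each library in turn gave 8 to 12, 11 to 13, 11 to 17 and 9 to 13 called members against PBS (1744 to 1906, 2152 to 2905, 2038 to 2854 and 1216 to 2028 genes). It gave 1 to 4 (99 to 340 genes) for the genotype in EVFx and 1 to 3 (116 to 249) in ProteinFx. Between fractions it gave 7 to 12 (1173 to 1544) and 6 to 12 (898 to 999), and for the interaction 7 to 13 (484 to 1211). The libraries that moved a member count by over 1.5 times were RNY1+/+ EVFx replicates 3 (4) and 4 (1) for the genotype in EVFx, RNY1-/- ProteinFx replicates 3 (3) and 4 (2) for that in ProteinFx, and RNY1+/+ EVFx replicate 4 and RNY1-/- ProteinFx replicates 1 and 2 (7 each) for the interaction. Without RNY1-/- ProteinFx replicates 1 and 2 together, the interaction had 0 members and 101 genes called. Without replicates 3 and 4 together it had 1903 genes, the genotype in ProteinFx 7 members and 405 genes, and RNY1-/- ProteinFx against PBS 918 genes. The cause of these changes was not tested. Egln3, Ldhb and Pfkfb4 were not tested in every comparison because of the limit of 3 CPM; with filterByExpr alone 35 of 35 members were tested in the 9 comparisons.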
